A study of Homo sapiens with 2 samples.

Results

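HIF subunits and oxygen sensors were followed at the RNA level in hypoxic cultures of PLC/PRF/5, a long-established line of human liver cancer cells (hepatocellular carcinoma). The set was chosen by name as the alpha and beta subunits of the hypoxia-inducible factors and the proteins that hydroxylate them or mark them for degradation. Of the 10 genes, 9 had a row of their own among 24991 genes with a single symbol, and EGLN2 had none. RNA came from 1 culture overexpressing NFX1, a zinc-finger transcription factor, and from 1 culture carrying an empty vector (EV), both hypoxic and both in the same medium. With 1 library per group there is no replicate check, so each difference compares these libraries and not the conditions. There was no normoxic library, and how NFX1 was introduced and whether the cells were a clone or a pool is not given in the sources used here.

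Hypoxia-inducible factors are dimers of an oxygen-regulated alpha subunit and a stable beta subunit. When oxygen is present, prolyl hydroxylases of the EGLN family modify the alpha subunit, the VHL ubiquitin ligase binds the modified form, and the proteasome removes it, while an asparaginyl hydroxylase, HIF1AN, blocks its binding to coactivators. Most of this regulation acts on the protein, so RNA levels describe the supply of each component and not the activity of the pathway. The genes for EGLN1 and EGLN3 are themselves known targets of the factors.

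The 4 promoter windows below belong to the members that carry the contrasts of level described further on, EPAS1 against HIF1A among the alpha subunits and EGLN1 against EGLN3 among the prolyl hydroxylases. Each holds 250 bases before and 50 bases after the annotated start on the strand of the gene, from RefSeq on GRCh38.p14. Capitals mark ACGTG or GCGTG, the core letters of a hypoxia response element, searched on both strands.
EPAS1, chr2:46297157-46297456, + strand: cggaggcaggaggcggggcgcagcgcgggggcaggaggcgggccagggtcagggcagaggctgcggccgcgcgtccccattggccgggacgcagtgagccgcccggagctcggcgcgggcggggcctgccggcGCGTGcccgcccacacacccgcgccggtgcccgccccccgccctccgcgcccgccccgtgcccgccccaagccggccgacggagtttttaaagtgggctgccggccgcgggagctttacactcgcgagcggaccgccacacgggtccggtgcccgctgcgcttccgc
HIF1A, chr14:61695263-61695562, + strand: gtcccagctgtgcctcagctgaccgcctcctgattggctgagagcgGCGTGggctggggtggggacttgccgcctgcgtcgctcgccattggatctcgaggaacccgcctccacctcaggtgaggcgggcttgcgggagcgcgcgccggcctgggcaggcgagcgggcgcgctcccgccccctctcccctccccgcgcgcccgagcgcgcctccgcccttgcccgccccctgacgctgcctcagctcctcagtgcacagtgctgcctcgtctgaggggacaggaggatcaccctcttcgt
EGLN1, chr1:231422238-231422537, - strand: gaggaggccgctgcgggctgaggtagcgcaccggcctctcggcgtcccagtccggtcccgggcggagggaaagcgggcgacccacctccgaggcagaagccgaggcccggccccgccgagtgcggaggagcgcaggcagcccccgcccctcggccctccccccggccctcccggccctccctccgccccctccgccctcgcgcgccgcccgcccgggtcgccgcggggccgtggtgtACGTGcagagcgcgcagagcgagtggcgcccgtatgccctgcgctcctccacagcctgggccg
EGLN3, chr14:33951025-33951324, - strand: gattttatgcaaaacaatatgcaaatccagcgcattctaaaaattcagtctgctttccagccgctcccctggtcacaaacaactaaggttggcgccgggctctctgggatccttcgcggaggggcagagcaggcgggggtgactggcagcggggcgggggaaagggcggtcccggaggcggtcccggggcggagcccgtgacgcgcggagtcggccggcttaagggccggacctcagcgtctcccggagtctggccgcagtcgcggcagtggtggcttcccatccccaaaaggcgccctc

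The EGLN1 window held ACGTG starting 13 bases before the annotated start. The EPAS1 window held GCGTG starting 117 bases before the start, and the HIF1A window held it 204 bases before the start. No match was present in the EGLN3 window, which says only that these letters are not in this window. The core letters were found in 48.4% of all 35116 promoter windows of the same length, so a match is common and is not evidence of a bound site. RefSeq windows were matched for 8 of the 10 genes, 12 windows in all, and 5 of the 12 held a match. In the EGLN2 window that held one, the letters lay within CACGTG, which is also an E-box and reads the same on both strands. The printed windows of EPAS1 and EGLN1 were 80.0% G and C, against 73.0% for HIF1A and 65.0% for EGLN3. The median over all windows was 58.7%. Another HIF1A window, not printed here, was 31.7% G and C and held no match.

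The table gives FPKM for each library, a fragment count divided by transcript length and library size. The worth of 1 fragment was read from olfactory receptor loci with the lowest values, 7 in the NFX1 library and 6 in the vector library. Each was taken to hold 1 fragment. That put the depth at an estimated 29.9 M fragments in the NFX1 library and 26.3 M in the vector library. The error of this estimate is not part of the counting intervals below. NFX1 itself had 56.0 FPKM in the NFX1 library and 4.21 FPKM in the vector library, a ratio of 13.3, which checks the labels. All 10 listed hepatocyte and hepatoma genes were measured. Their summed level was 10193 FPKM in the NFX1 library and 8757 FPKM in the vector library. Most of that sum came from SERPINA1, at 6807 and 5935 FPKM, followed by KRT18 (1783 and 1502) and KRT8 (1418 and 1140). APOA1, APOB and HNF4A lay between 38.6 and 90.7 FPKM. ALB, albumin, had only 1.06 and 0.776 FPKM, TTR 1.96 and 1.38, FGB 1.64 and 1.70, and AFP 7.73 and 7.48. None of 5 fibroblast markers reached 1 FPKM (summed level 1.04 and 0.885 FPKM), nor did any of 5 endothelial markers (summed level 0.0682 and 0.0587 FPKM), with CDH5 and KDR at 0 in both libraries. Of 5 blood cell markers only LYZ, lysozyme, did, at 47.9 FPKM in the NFX1 library and 49.2 FPKM in the vector library, above every member with its own row except EPAS1. The leukocyte genes PTPRC and CD3E were at 0 in both. In bulk RNA, fewer cells of a type and less RNA per cell cannot be told apart.

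The levels separated the members into 3 tiers that were the same in both libraries. EPAS1 stood alone at the top. VHL, HIF1AN, EGLN1, HIF1A and ARNT followed within a narrow band, and EGLN3, ARNT2 and HIF3A lay under 1 FPKM. The rank of all 9 genes by FPKM was identical in the NFX1 and the vector library. No spread between cultures is known, so neighbours within the middle band cannot be called different in level.

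**Figure D1:**
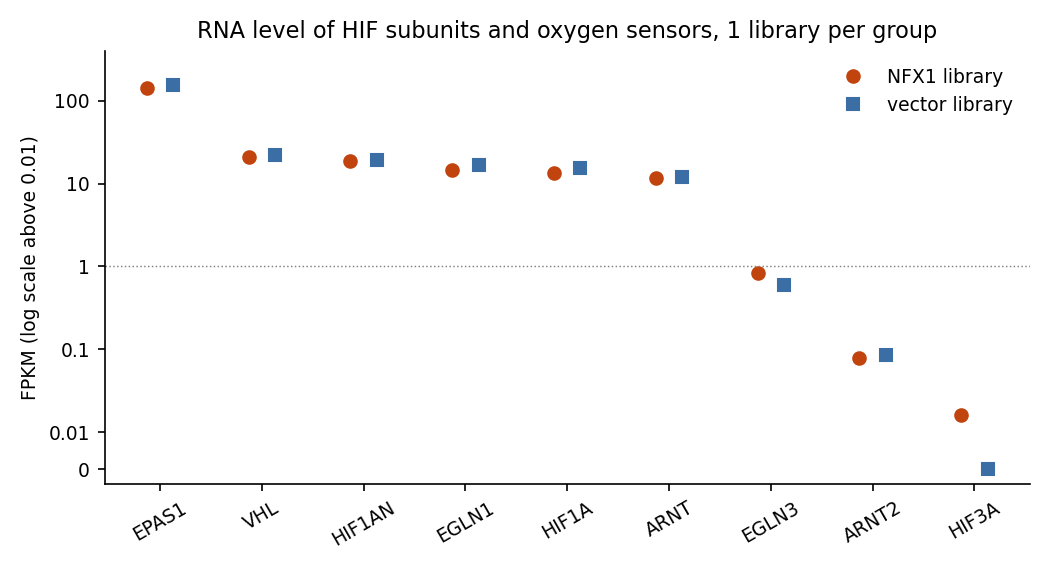
FPKM of the 9 members with a row of their own (vertical axis, logarithmic above 0.01) in the NFX1 library (circles) and the vector library (squares), with a dotted line at 1 FPKM. EPAS1 is at 140 and 153 FPKM, the 5 genes of the middle band lie between 11.5 and 22.0 FPKM, and HIF3A is at 0 in the vector library.

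Among the alpha subunits, EPAS1, which encodes HIF-2 alpha, was the dominant transcript. EPAS1 (chromosome 2, 46524541 to 46613842, hg19) had 140 FPKM in the NFX1 library and 153 FPKM in the vector library. The NFX1 value was the lower one, with a ratio of 0.915 and a 95% exact counting interval of 0.867 to 0.966. These intervals rest on fragments estimated from FPKM and the median length of a gene's GENCODE transcripts, and cover counting error only. HIF1A (chromosome 14, 62147759 to 62215807, hg19), which encodes HIF-1 alpha, had 13.2 FPKM in the NFX1 library and 15.3 FPKM in the vector library. Its ratio of 0.861 had an interval of 0.733 to 1.01 with a transcript of 759.5 bp, which includes 1, and of 0.803 to 0.924 with the longest transcript of 3956 bp, which does not. EPAS1 was 10.6 times as high as HIF1A in the NFX1 library and 9.98 times as high in the vector library, and it made up 91.4% and 90.9% of the summed alpha-subunit FPKM. These levels are RNA only, and HIF-1 alpha protein is controlled mainly by its degradation.

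An antisense row shares the HIF1A locus. HIF1A-AS2, a noncoding RNA, had 7.51 FPKM in the NFX1 library and 8.13 FPKM in the vector library, and HIF1A-AS1 had 0.251 and 0.0723 FPKM. Whether the libraries keep strand is not given in the sources used here, so reads of HIF1A and of its antisense partners may not be told apart. HIF3A (chromosome 19, 46720995 to 46846690, hg19), an alpha subunit with splice forms that inhibit the others, had 0.0160 FPKM in the NFX1 library and was listed at 0 in the vector library. The NFX1 value is what 1 fragment would give on a transcript of 2.09 kb. The estimate was 0 fragments with the median transcript length and 3 with the longest of 5852 bp. It was 0 in the vector library with either length. None of these exceeds the 3 fragments that a count of 0 allows, so HIF3A could not be called detected at this depth in either library.

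Of the beta subunits, ARNT, the common partner of the alpha subunits, was the one present. ARNT (chromosome 1, 150782181 to 150849244, hg19) had 11.5 FPKM in the NFX1 library and 11.9 FPKM in the vector library. The ratio was 0.972 with a counting interval of 0.806 to 1.17, so no difference was detectable at this depth. ARNT2 (chromosome 15, 80696692 to 80890277, hg19), a relative used mainly in neurons and kidney, had 0.0787 and 0.0847 FPKM, an estimated 3 fragments in each library with the median transcript length. With the longest transcript of 6690 bp the estimate was 16 and 15 fragments, and the interval of 0.434 to 2.04 around the ratio of 0.928 included 1. The summed alpha subunits were 13.2 times the summed beta subunits in the NFX1 library and 14.1 times in the vector library, so the FPKM of EPAS1 alone exceeded that of its partner in both.

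Of the prolyl hydroxylases, EGLN1 (PHD2), regarded as the main oxygen sensor in most cells, was the higher of the 2 with rows of their own. EGLN1 (chromosome 1, 231499497 to 231560790, hg19) had 14.6 FPKM in the NFX1 library and 16.8 FPKM in the vector library. Its ratio of 0.871 had a counting interval of 0.814 to 0.931, which excludes 1. EGLN3 (PHD3; chromosome 14, 34393421 to 34420284, hg19), the hydroxylase usually described as the most strongly induced by hypoxia, had 0.824 FPKM in the NFX1 library and 0.603 FPKM in the vector library. It is the only member with the higher value in the NFX1 library apart from HIF3A, but its interval of 0.600 to 3.47 around a ratio of 1.37 is wide and includes 1, as does that of 0.928 to 2.04 with its longest transcript. EGLN1 was 17.7 times as high as EGLN3 in the NFX1 library and 27.8 times as high in the vector library, and that gap between the ratios rests on an estimated 16 and 10 fragments of EGLN3, or 70 and 45 with its longest transcript.

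EGLN2 (PHD1) could not be measured alone. The table gives 1 row for EGLN2, MIA and RAB4B together (chromosome 19, 41281082 to 41314346, hg19), at 126 FPKM in the NFX1 library and 109 FPKM in the vector library, a ratio of 1.15. How much of that row is EGLN2 cannot be told, and it was left out of the counts.

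HIF1AN (FIH), the asparaginyl hydroxylase, and VHL, the substrate receptor of the ubiquitin ligase, had closely similar values in both libraries. HIF1AN (chromosome 10, 102295641 to 102313681, hg19) had 18.6 FPKM in the NFX1 library and 19.3 FPKM in the vector library, with a ratio of 0.964 and an interval of 0.846 to 1.097. With the longest transcript of 13011 bp the interval was 0.932 to 0.997 and no longer included 1. VHL (chromosome 3, 10183319 to 10195354, hg19) had 20.8 and 22.0 FPKM, with a ratio of 0.948 and an interval of 0.884 to 1.02. VHL was 1.43 times as high as EGLN1 in the NFX1 library and 1.31 times as high in the vector library.

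**Figure D2:**
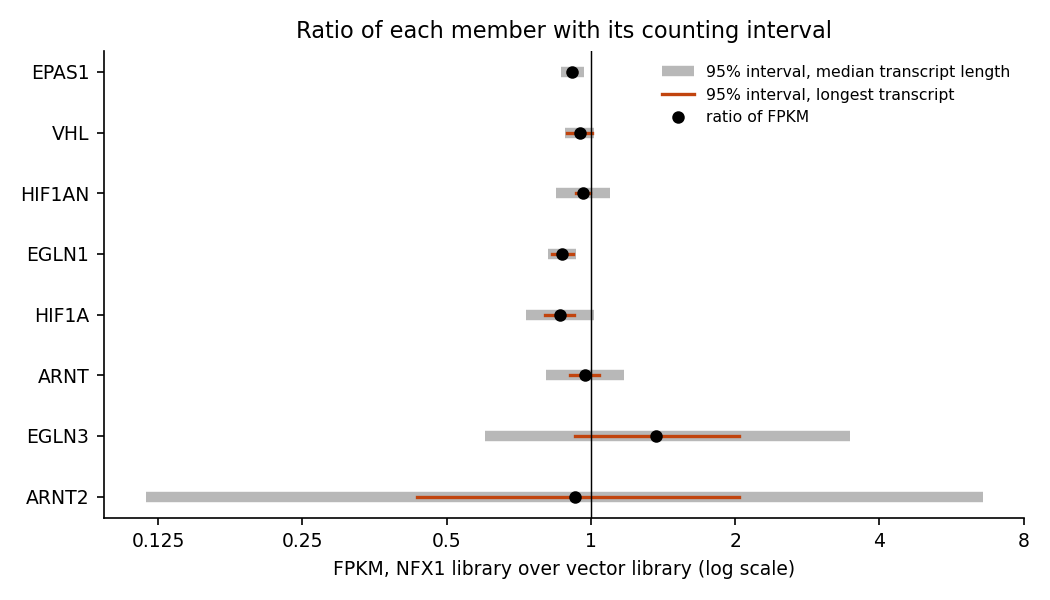
Ratio of FPKM, NFX1 library over vector library (horizontal axis, logarithmic), for the 8 members above 0 in both libraries, with 95% counting intervals from the median transcript length (grey bars) and the longest transcript (thin lines). The intervals of EPAS1 and EGLN1 lie below 1 with either length, those of HIF1A and HIF1AN with the longest transcript only, and those of EGLN3 and ARNT2 are wide.

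Changes were then set against all genes as log2((NFX1 FPKM + 1)/(vector FPKM + 1)), over the 11182 genes with at least 1 FPKM in at least 1 library. That filter kept 6 members and left out EGLN3, ARNT2 and HIF3A. None of the 6 had a change beyond 0.32 in either direction, the limit used for all lists here, where the background was 6.12% of genes higher and 2.30% lower. All 6 had the lower value in the NFX1 library, where the background was 48.0% of genes lower by any amount. The changes were -0.20 for HIF1A, -0.19 for EGLN1, -0.13 for EPAS1, -0.07 for VHL, -0.05 for HIF1AN and -0.04 for ARNT, and their median was -0.10, beside 0.01 over all genes. At a limit of 1.1-fold, HIF1A and EGLN1 were past it on the low side, where the background was 20.7%. The counting interval lay below 1 for 2 of the 6 members with the median transcript length, where the background was 11.8% of genes. With the longest transcript it lay below 1 for 4 members, where the background was 24.5%.

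Across the table the change followed base composition, and the members do not share one. Genes were split by transcript GC content into 5 bins of nearly equal size. HIF1A and EGLN1 lay in the bin of lowest GC content, where the median change was -0.11 and 81.8% of genes had the lower value with NFX1. HIF1AN and VHL lay in the bin above it, with a median of -0.10, and ARNT in the middle bin, with a median of 0.00. EPAS1, at 57.2% GC, lay in the bin above that one, where the median change was 0.14 and 20.5% of genes had the lower value with NFX1. HIF1A, EGLN1, HIF1AN and VHL therefore had changes of the same sign as most genes of their base composition. By the median GC content of its transcripts EPAS1 had not. Its longest transcript has 52.6% GC, within the range of the middle bin, where 49.2% of genes had the lower value with NFX1.

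**Figure D3:**
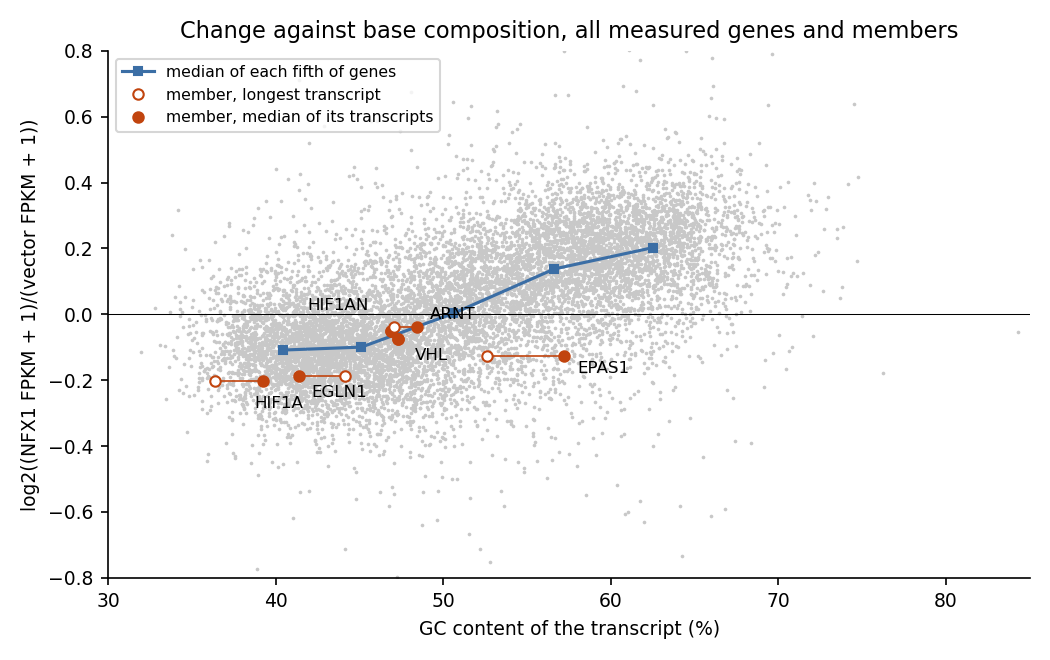
Change (log2, vertical axis) against transcript GC content (percent, horizontal axis) for all measured genes (grey points), the median of each GC bin (squares and line) and the 6 measured members, at the median GC of their transcripts (filled) and at that of the longest transcript (open). EPAS1 lies below the line at either GC value, and ARNT, HIF1AN and VHL lie near it.

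When the trend of the change with GC content, transcript length and expression was subtracted, the members came apart. The adjusted change of EPAS1 was -0.31, at percentile 2.12 of all genes. With the GC content and length of each gene's longest transcript, where EPAS1 has 52.6% GC, it was -0.23 at percentile 5.07. HIF1A had an adjusted change of -0.12 with either transcript choice, at percentiles 18.4 and 17.1. EGLN1 had -0.06 and -0.08. ARNT and HIF1AN turned to 0.01 each with the median transcript and to 0.03 each with the longest, and VHL had 0.00 and -0.04. After adjustment 4 of the 6 members were lower, where the background was 49.8%, and none was beyond 0.32, where it was 1.96% higher and 1.88% lower.

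**Figure D4:**
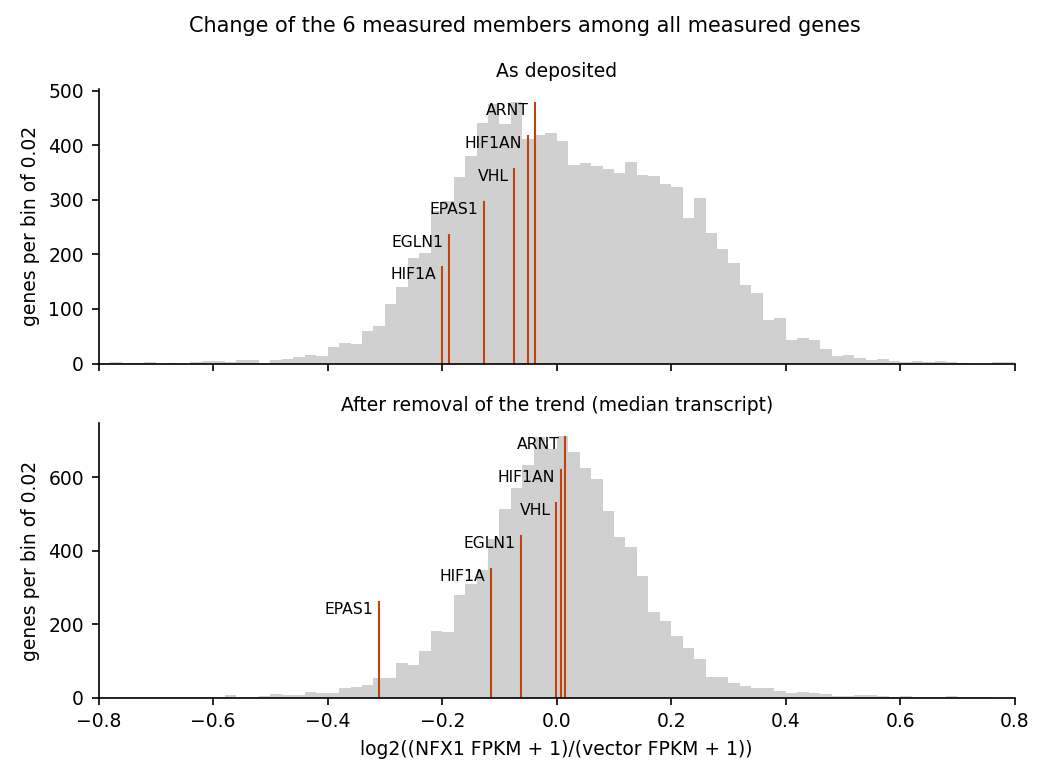
Number of genes per bin of the change (log2, horizontal axis) over all measured genes, as deposited (top) and after the trend was subtracted (bottom), with the 6 measured members as vertical lines. As deposited, the members lie between -0.20 and -0.04; after adjustment EPAS1 is at -0.31 in the low tail and ARNT, HIF1AN and VHL are near 0.

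The authors' deposited table tested 7 of the 9 members and marked none as significant, against 18 of 14994 rows (0.120%). The lowest p-value of a member in the authors' deposited table was 0.270, for EGLN3, with a log2 fold change of 0.45, and the q-value was 0.999. For EGLN1 the authors' deposited table gave p = 0.426, for HIF1A p = 0.451 and for EPAS1 p = 0.631. These tests rest on 1 library per group and say nothing of the spread between cultures.

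Partners of VHL in its ubiquitin ligase had a median change of -0.11 over 11 measured genes of 12, with 1 beyond 0.32, on the high side. That gene was TCEB2, which encodes elongin B, an adaptor subunit of the ligase. It had 470 FPKM in the NFX1 library and 337 FPKM in the vector library, a change of 0.48. The ratio was 1.40, with a counting interval of 1.35 to 1.45. After adjustment its change was 0.23. UBE2M, which conjugates NEDD8 to cullins, had 145 and 119 FPKM, a change of 0.29. After adjustment it was 0.15, or 0.01 with the longest transcript. The conjugating enzyme UBE2D1 had 7.10 and 8.68 FPKM, a change of -0.26, and UBA3, part of the enzyme that activates NEDD8, had -0.21. Adjusted, these were -0.17 and -0.12. The median of the list after adjustment was 0.01.

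Modifiers of the stability of HIF-alpha or EGLN proteins had a median change of 0.13 over 16 genes, and 1 was beyond 0.32, on the high side. It was MCM7, a replication helicase subunit reported to bind HIF-1 alpha, at 73.6 FPKM in the NFX1 library and 56.9 FPKM in the vector library, which is a change of 0.36, or 0.21 after adjustment. GNB2L1 (RACK1), which competes with HSP90 for HIF-1 alpha, had 1344 and 1089 FPKM, a change of 0.30, or 0.12 after adjustment. FKBP8, which regulates EGLN1 protein, had a change of 0.26 that was -0.04 after adjustment, and the deubiquitinase USP20 had 0.24 that was 0.09. Before adjustment 10 of the 16 genes were higher and 6 lower, where the background was 48.0% of genes lower. The adjusted median of the list was -0.03, with 11 of 16 genes lower, where the background was 49.8%. The side of the median therefore depended on the adjustment.

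Coactivators and inhibitors of the factors had a median change of -0.05 over 11 genes, with 1 beyond 0.32, on the low side. It was CITED1, of a family of proteins that bind the coactivators CREBBP and EP300, at 1.67 FPKM in the NFX1 library and 2.56 FPKM in the vector library. Its change was -0.42, and -0.52 after adjustment, and the ratio of 0.650 had an interval of 0.412 to 0.996. The coactivator NCOA3 had a change of -0.24, the ATPase RUVBL2 0.26 and CITED4 0.23, which were -0.10, 0.04 and 0.03 after adjustment. Other bHLH-PAS factors, the family to which the subunits belong, had a median of -0.14 over 6 measured genes of 11, none beyond 0.32 either way. AHR, the dioxin receptor, which also pairs with ARNT, had 10.52 and 12.01 FPKM, a change of -0.18. The circadian factors ARNTL2 and ARNTL had -0.17 and -0.16, and NPAS1 had 0.18. Adjusted changes were -0.08 for AHR, -0.04 for ARNTL2, -0.09 for ARNTL and -0.01 for NPAS1.

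Genes that set the supply of 2-oxoglutarate, succinate, fumarate and iron, the cosubstrate, inhibitors and metal of the hydroxylases, had a median change of 0.10 over 20 genes, none beyond 0.32 either way. The succinate dehydrogenase subunit SDHD had 45.5 FPKM in the NFX1 library and 54.0 FPKM in the vector library, so its change was -0.24, and -0.25 after adjustment. The isocitrate dehydrogenase subunit IDH3G had 0.23, the hydroxyglutarate dehydrogenase D2HGDH 0.21 and the succinate-CoA ligase subunit SUCLA2 -0.21. Of these, IDH3G and D2HGDH were within 0.03 of 0 after adjustment, and SUCLA2 had -0.12. Genes of the mTOR and PI3K control of HIF1A synthesis had a median of -0.09 over 17 genes. None was beyond 0.32 at the pseudocount of 1. At a pseudocount of 0.1, for which no share over all genes was computed, 2 were beyond 0.32 on the low side. Those 2, the PI3K subunits PIK3CA and PIK3R1, had changes of -0.31 and -0.27 at low levels, or -0.59 and -0.51 at the pseudocount of 0.1, with 0.720 and 0.749 FPKM in the NFX1 library and 1.14 and 1.11 FPKM in the vector library. The counting interval of the ratio was 0.314 to 1.28 for PIK3CA and 0.358 to 1.26 for PIK3R1, and 0.524 to 0.764 and 0.546 to 0.838 with their longest transcripts. The kinases AKT2 and AKT1 had 0.29 and 0.25, which were 0.10 and 0.04 after adjustment.

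Target genes reported in other cells to prefer HIF-1 or HIF-2 were listed as the closest readout of the subunits. Of 8 HIF-1 preferring targets, 1 was beyond 0.32, on the low side, and the median change was -0.01. It was LDHA, lactate dehydrogenase A, with a change of -0.34 that was -0.36 after adjustment. BNIP3, a mitophagy receptor, had 60.8 FPKM in the NFX1 library and 71.0 FPKM in the vector library, so its change was -0.22, and -0.33 after adjustment, or -0.30 with the longest transcript. The glycolytic enzymes ENO1 and ALDOA had 0.22 each, which were 0.09 and -0.06 afterwards, and ALDOA had 0.02 with the longest transcript. Of 8 HIF-2 preferring targets, 5 were measured, with 1 beyond 0.32 on each side and a median of -0.17. CCND1, cyclin D1, had 46.3 FPKM in the NFX1 library and 54.5 FPKM in the vector library, so its change was -0.23. After adjustment it was -0.45 with the median transcript and -0.27, within the limit, with the longest. On the high side, DLL4, a Notch ligand, had 9.42 and 7.32 FPKM, a change of 0.32, and POU5F1 had 0.28. After adjustment DLL4 had 0.20 and POU5F1 0.22, both within the limit. POU5F1 has 7 rows and near-identical pseudogenes, so its value is uncertain. After adjustment 2 of the 8 HIF-1 targets and 3 of the 5 measured HIF-2 targets were beyond 0.32 on the low side. The background there was 1.88%. None was beyond it on the high side, where the background was 1.96%. These counts use the median transcript, and BNIP3 and CCND1 were within the limit with the longest. The adjusted medians were -0.10 for the HIF-1 list and -0.34 for the HIF-2 list, beside 0.00 over all genes. Whether the lists differ was not tested.

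**Figure D5:**
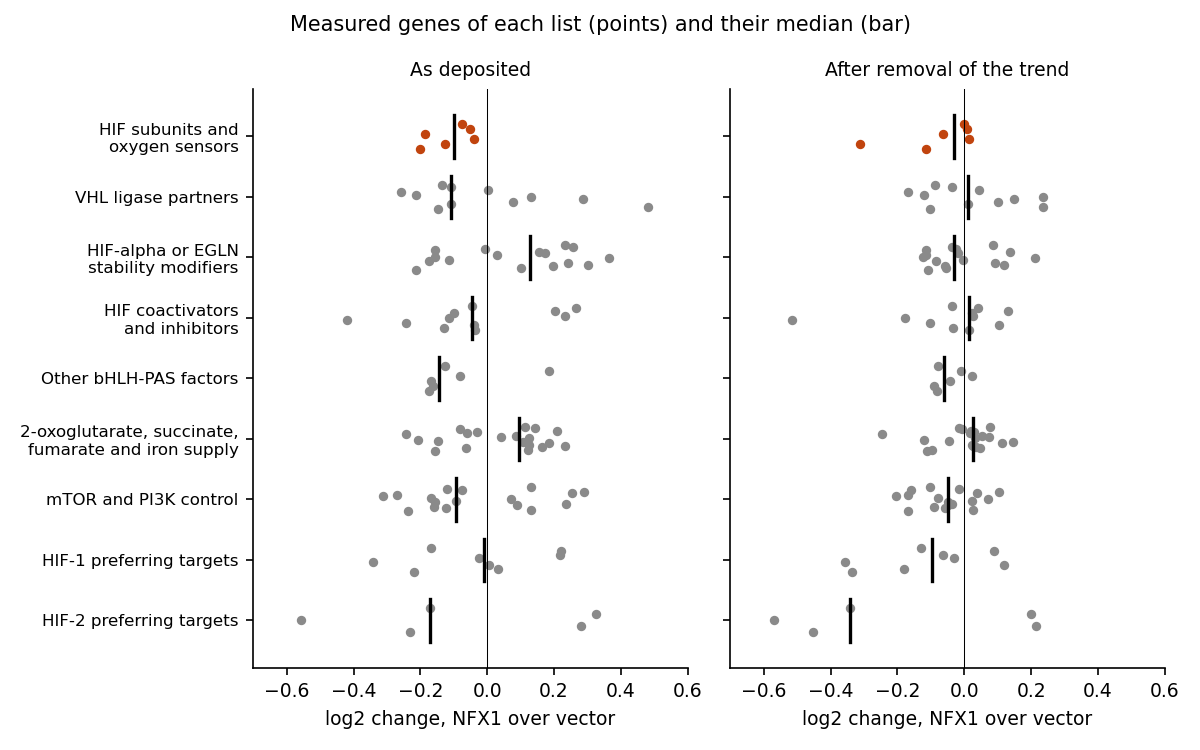
Change (log2, NFX1 library over vector library, horizontal axis) of each measured gene of the 9 lists (points), as deposited (left) and after the trend was subtracted (right), with the median of each list as a bar. The 6 members lie below 0 as deposited, and only EPAS1 is beyond -0.30 among them after adjustment.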

How the data were processed

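RNA of 2 hypoxic PLC/PRF/5 cultures was sequenced, and groups follow the genotype labels. The submitters' processing notes name hg19, Cufflinks 2.2.1 and TopHat2 2.1.0; settings, annotation and library type are not given in the sources used here. Per the file headers the authors deposited FPKM for each library, a log2 fold change, a test score, a q-value and a p-value. FPKM was not rescaled. Of 28658 rows, 1651 had no symbol and 492 held several symbols; both stayed out of the counts. A repeated symbol was represented by its row of highest mean.

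Changes are log2 ratios with a pseudocount of 1 FPKM, which understates the change of low genes, and the limit of 0.32 is on that log2 scale. Fragments were estimated from the lowest nonzero values of olfactory receptor loci and GENCODE 29 transcript lengths, matched by symbol only because that annotation is on GRCh38; Clopper-Pearson intervals cover counting error only, and too short a length widens them. Cubic splines of GC content, log2 length and expression, fitted to genes changed less than 2-fold, gave the trend, which took 40.3% of the variance (10971 genes with a transcript, 98.1%). Steps were tested on simulated libraries.

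The members, lists and adjustment were chosen with earlier results of these data known. Named genes were the 10 members, NFX1 and up to 4 measured genes of each of 8 lists with the greatest change. A gene that this rule selects is not reported here, though it stayed in the counts and medians. Computations used scipy 1.17.1, numpy 2.4.6 and pandas 2.3.3 under Python 3.11.15, with figures by matplotlib 3.10.9.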

Additional observations from a re-analysis of the deposited data

How the results depend on the processing

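With 1 library per group, nothing here measures the spread between cultures, and depth limits EGLN3, ARNT2 and HIF3A. The 6 measured members stayed lower with a pseudocount of 0.1 or 5, with scaling by the median ratio, upper quartile or total, and with summed rows. None of these settings could have turned a lower member higher. A pseudocount keeps the sign of a change, no member has a repeated row, and each scaling lowers the NFX1 values. After trend subtraction 4 of 6 were lower, where the background was 49.8%. Without a filter 7 of 9 were lower, and no share over all genes was computed there. No member was beyond 0.32 (log2) under these settings. At the main setting 2 were past 1.1-fold, and that limit was not counted under the others. Of 48 alternative values for single members, 44 stayed within the half-width of the counting interval with the median transcript length. Those with summed rows could not differ. For HIF1A, ARNT, HIF1AN and VHL the counting interval with the median length includes 1. A value there could lose the whole change and still count as staying within it. ARNT and HIF1AN changed sign after trend subtraction and were counted as staying. The 4 that moved were EPAS1 and EGLN1 after trend subtraction, with either transcript choice. Among lists, scaling by the median ratio moved the HIF-1 target median to -0.062. Trend subtraction moved it to -0.097, the HIF-2 target median to -0.34, and that of stability modifiers to -0.031; the cause was not tested. The trend with the longest transcript and the counts per list at a pseudocount of 0.1 were added after the data had been seen. No paired analysis was possible because each group has 1 library.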

Other observations

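Some genes near the members were picked after their values had been seen and carry no test. CITED2, an inhibitor that is itself a target of the factors, had 456 FPKM in the NFX1 library and 494 FPKM in the vector library, so its change was -0.12, and -0.18 after adjustment, and stood above EPAS1 in level. P4HTM, a transmembrane prolyl hydroxylase of the endoplasmic reticulum, had 5.94 and 4.90 FPKM, above EGLN3 in both libraries, with a change of 0.23, and 0.09 after adjustment. EPO, erythropoietin, was listed at 0 in the NFX1 library and at 0.233 FPKM in the vector library. Both values are under 1 FPKM and no fragments were estimated for EPO, so they cannot be called different.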
